A study of Homo sapiens with 3 samples.

Results

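The 9 genes described here are APOA1, APOA2, APOB, APOC1, APOC3, APOE, APOH, APOM and MTTP, which encode 8 apolipoproteins and a protein that loads lipid onto apolipoprotein B. They were taken by symbol, as listed, from the 62680 gene rows of an RNA-seq count table, and each symbol matched 1 row. The libraries came from HepG2 cells, a human hepatocellular carcinoma line labelled wild type and grown in serum-containing DMEM. Cells received 20 µM A740003, 20 µM A438079 or PBS as the control for 48 h, and both compounds are labelled as specific antagonists of P2X7, an ATP-gated ion channel. What the compounds were dissolved in is unstated, so solvent and compound cannot be told apart. There was 1 library per treatment, so no difference below has a replicate check and none was tested; intervals cover counting error only.

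Hepatocytes export triglyceride and cholesterol in very low density lipoproteins, each built around a single copy of apolipoprotein B. MTTP, the large subunit of the microsomal triglyceride transfer protein, adds lipid to that copy as it enters the endoplasmic reticulum. Apolipoproteins A-I and A-II are the main proteins of high density lipoprotein, and the C and E proteins move between particles and steer their breakdown and uptake. HepG2 cells are widely used to study lipoprotein secretion.

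APOB was the member with the highest ratio over PBS in both antagonist libraries, at 1.39 times PBS with A740003 and 1.32 times with A438079. APOH was the lowest with A740003, at 0.712 times PBS, and APOE the lowest with A438079, at 0.791 times. The other members lay between 0.872 and 1.14 times PBS with A740003 and between 0.889 and 1.19 times with A438079. No member was 1.5-fold higher or lower in any of the 3 comparisons.

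The 3 libraries held 19735540, 19606723 and 19375462 counts for A740003, A438079 and PBS, and the comparison took in 12270 genes whose mean reached 1 CPM, a TMM-scaled unit worth 19.4 to 19.9 counts in these libraries. All 9 members passed that filter, and 6 of them reached a mean of 100 CPM. Mitochondrial genes took 8.38%, 9.39% and 10.3% of counts in the same order, a feature that moved with treatment; with those genes left out of the totals the ratios of APOB, APOH and APOE kept their direction. In these bulk libraries fewer cells of a kind and less RNA per cell cannot be told apart. Among 12 genes of proteins secreted by hepatocytes, all were measured, and their summed levels were 12715, 13494 and 13236 FPKM (fragments per kilobase, scaled to library size). The highest of them were ALB (2930 to 3755 FPKM), TF (3479 to 3710) and SERPINA1 (1853 to 1992). The lowest were TTR (13.1 to 21.2 FPKM), VTN (21.9 to 26.1) and HP (26.68 to 32.35). Of 6 endothelial and 7 macrophage markers in the table none was measured, with summed levels of at most 0.52 and 0.38 FPKM in any library. VWF, CDH5, KDR, CLEC4G, CD163, CSF1R, MARCO, VSIG4, PTPRC and TYROBP had 0 counts. Of 7 stellate cell and fibroblast markers 1 was measured (ACTA2, at 14.8 to 16.8 FPKM), and COL1A1, COL3A1, DCN and LUM had 0 counts. The list for small intestine, the other lipoprotein-secreting epithelium, had summed levels of 155 to 163 FPKM, most of it from VIL1 (133 to 139 FPKM). Of the list's 7 genes 4 were measured, and SI had 0 counts. The measured ones include MTTP, which is also 1 of the 9 members, and APOA4, at only 1.46 to 2.07 FPKM.

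APOB lies on chromosome 2 (21001429 to 21044073, minus strand; GENCODE release 29 on GRCh38, for this and the following positions), and its longest annotated transcript is 14121 nt. It had 169932 counts with A740003, 158105 with A438079 and 119636 with PBS. Both antagonist libraries were above the PBS library, and by number of counts APOB ranked 5, 5 and 9 among all genes in those libraries. The ratio of scaled counts was 1.39 (95% counting interval 1.38 to 1.40) for A740003 over PBS and 1.32 (1.31 to 1.33) for A438079 over PBS. Of the 1921 genes with at least 100 CPM, 1.56% had a higher ratio than APOB with A740003 and 0.416% with A438079. APOB was thus near the upper end of the ratios of well-counted genes in each comparison, which share the PBS library.

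Ratios in these libraries varied with transcript length, and APOB is among the longest mRNAs measured. Of 84 other genes with at least 100 CPM and a longest transcript of at least 10000 nt, a limit chosen after the values were seen, 72 lay above PBS with A740003 and 77 with A438079. Their median ratios were 1.20 and 1.14, against 1.03 and 1.04 for 1832 shorter ones. Of these 84 long genes, 7 stood above APOB with A740003 and 2 with A438079. After removal of the trend of ratios along GC content and transcript length, the log2 ratio of APOB went from 0.47 to 0.29 (A740003) and from 0.40 to 0.26 (A438079), so it stayed above 0 but was smaller.

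MTTP (chromosome 4, 99563761 to 99623999, plus strand) is the lipid-loading partner of APOB. It had 1468 counts with A740003, 1289 with A438079 and 1324 with PBS, so the A740003 library was the highest. Its ratio over PBS was 1.08 (1.003 to 1.17) with A740003 and 0.975 (0.903 to 1.05) with A438079. The A438079 interval includes 1, and the log2 ratio of 0.11 with A740003 was 0.0039 after removal of that trend. MTTP thus lay nearer to 1 than APOB in both antagonist libraries, and the difference between these genes was not tested.

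**Figure D1:**
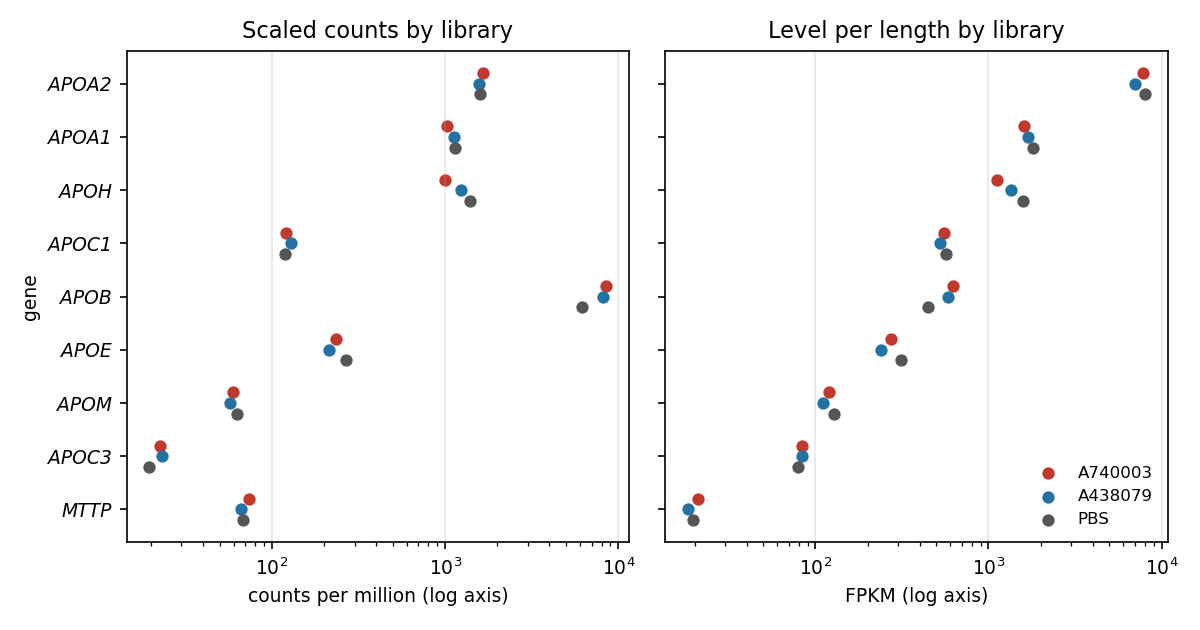
Levels of the 9 genes in each library, as scaled counts, CPM (left) and as the authors' FPKM (right), both on log axes; each point is 1 library. APOB has the most counts, from 6160 to 8534 CPM, while APOA2 has the highest level per length, from 7007 to 8003 FPKM.

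APOA1 (chromosome 11, 116835751 to 116837950, minus strand) encodes the main protein of high density lipoprotein. It had 20356 counts with A740003, 21684 with A438079 and 22190 with PBS. Both antagonist libraries were below PBS, with ratios of 0.895 (0.878 to 0.912) and 0.979 (0.961 to 0.998). The A740003 ratio kept its direction under every alternative scaling and unit tried, whereas the A438079 ratio was above 1 under upper quartile scaling and after removal of the trend (log2 ratios of 0.019 and 0.039).

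APOA2 (chromosome 1, 161222292 to 161223631, minus strand), the second protein of high density lipoprotein, had 32898 counts with A740003, 30535 with A438079 and 30892 with PBS. Its ratios over PBS were 1.04 (1.02 to 1.05) and 0.990 (0.975 to 1.01), so it lay close to PBS in both antagonist libraries. The direction with A740003 depended on the unit, since the FPKM ratio was 0.974, and with A438079 the FPKM ratio was 0.876.

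APOM (chromosome 6, 31652416 to 31658210, plus strand) encodes a lipocalin that carries sphingosine-1-phosphate on high density lipoprotein. It had 1187 counts with A740003, 1106 with A438079 and 1215 with PBS. Its ratios were 0.953 (0.879 to 1.03) and 0.912 (0.840 to 0.990), so only the A438079 interval lay below 1. In scaled counts the genes of high density lipoprotein proteins did not share a direction with A740003. Their ratios over PBS ran from 0.895 to 1.04 (A740003) and from 0.912 to 0.990 (A438079). In FPKM the A740003 ratios of APOA1, APOA2 and APOM were 0.883, 0.974 and 0.930, each below 1. After removal of the trend their log2 ratios with A740003 were -0.21, -0.033 and -0.067.

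APOE (chromosome 19, 44905754 to 44909393, plus strand) encodes the ligand by which remnant particles are taken up. It had 4660 counts with A740003, 4112 with A438079 and 5210 with PBS. Both antagonist libraries were below PBS, and A438079 was the lower. The ratio over PBS was 0.872 (0.838 to 0.908) with A740003 and 0.791 (0.759 to 0.824) in the A438079 library. Of genes with at least 100 CPM, 1.72% had a lower ratio than APOE in the A438079 comparison. Its log2 ratios of -0.20 and -0.34 became -0.21 and -0.24 after removal of that trend.

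APOC1 and APOC3 encode small exchangeable proteins, of which apolipoprotein C-III is known as an inhibitor of triglyceride clearance. APOC1 (chromosome 19, 44914247 to 44919349, plus strand) had 2390 counts with A740003, 2484 with A438079 and 2324 with PBS, for ratios of 1.003 (0.947 to 1.06) and 1.07 (1.01 to 1.13). APOC3 (chromosome 11, 116829706 to 116833072, plus strand) had 447, 452 and 381 counts in the same order. Both antagonist libraries held more APOC3 counts than PBS, for ratios of 1.14 (0.996 to 1.32) and 1.19 (1.03 to 1.37), of which the A740003 interval includes 1. With the fewest counts of the 9 genes it also had the widest intervals over PBS, and at this depth a difference with A740003 was not detectable.

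APOH (chromosome 17, 66212033 to 66256525, minus strand) encodes beta-2-glycoprotein I, a plasma protein that binds anionic phospholipids and is carried partly on lipoproteins. It had 19800 counts with A740003, 24068 with A438079 and 27124 with PBS, with the A740003 library the lowest. The ratio over PBS was 0.712 (0.699 to 0.725) with A740003 and 0.889 (0.874 to 0.905) with A438079. Of genes with at least 100 CPM, 1.15% had a lower ratio than APOH with A740003 and 6.30% with A438079. The log2 ratio with A740003 was -0.49, which became -0.42 after removal of the trend. ALB, the gene of serum albumin and a member of the hepatocyte secreted list, had a ratio over PBS of 0.745 (0.738 to 0.751) for A740003 and of 0.959 (0.951 to 0.967) for A438079. That list did not move as 1 group: of its 12 genes 5 lay above PBS and 7 below with A740003, and 9 above and 3 below with A438079.

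**Figure D2:**
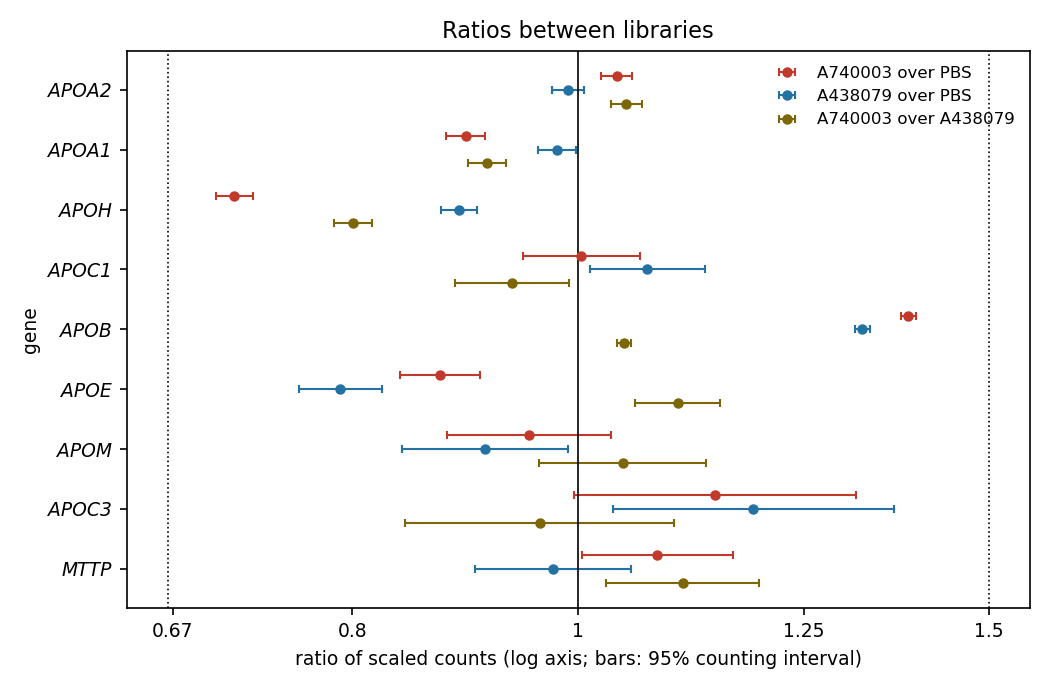
Ratio of scaled counts between libraries for each gene (log axis), with bars for the 95% counting interval and dotted lines at a 1.5-fold difference. APOB stands to the right at 1.39 and 1.32 over PBS, APOH to the left at 0.712 and 0.889, and no point reaches a dotted line.

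Start-site sequence is shown for 4 members: for APOH and APOE because they had the lowest ratios over PBS, for APOC1 because it is the neighbour of APOE without that ratio, and for MTTP as the partner of APOB. Each window holds 250 bases before and 50 after an annotated start (RefSeq, GRCh38.p14), printed 5′ to 3′ on the gene's strand; 6 of the 9 members matched 9 windows in that table, 3 of them for APOE and 2 for MTTP, of which 1 each is printed. Capitals mark the letters of 6 searched motifs, read on both strands and spelled out after the sequences; none of the marked matches overlap. The windows are chr17:66229366-66229665 (minus) for APOH, chr19:44905546-44905845 (plus) for APOE, chr19:44914422-44914721 (plus) for APOC1 and chr4:99574574-99574873 (plus) for MTTP.
APOH: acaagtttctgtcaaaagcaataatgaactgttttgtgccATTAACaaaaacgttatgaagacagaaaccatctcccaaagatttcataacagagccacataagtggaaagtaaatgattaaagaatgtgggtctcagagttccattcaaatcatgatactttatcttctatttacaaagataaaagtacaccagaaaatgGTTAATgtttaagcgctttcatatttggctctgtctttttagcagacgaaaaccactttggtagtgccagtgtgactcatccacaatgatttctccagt
APOE: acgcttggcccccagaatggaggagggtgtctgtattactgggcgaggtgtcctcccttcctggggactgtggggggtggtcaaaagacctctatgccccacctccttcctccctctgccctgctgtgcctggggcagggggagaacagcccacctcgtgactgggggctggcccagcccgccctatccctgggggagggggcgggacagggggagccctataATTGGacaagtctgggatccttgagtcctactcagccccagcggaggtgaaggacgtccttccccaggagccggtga
APOC1: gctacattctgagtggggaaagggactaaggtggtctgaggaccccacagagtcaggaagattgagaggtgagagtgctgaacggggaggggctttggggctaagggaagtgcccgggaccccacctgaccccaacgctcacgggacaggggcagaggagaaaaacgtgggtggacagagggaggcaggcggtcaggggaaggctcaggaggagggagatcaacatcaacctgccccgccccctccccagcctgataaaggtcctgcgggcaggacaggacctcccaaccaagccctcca
MTTP: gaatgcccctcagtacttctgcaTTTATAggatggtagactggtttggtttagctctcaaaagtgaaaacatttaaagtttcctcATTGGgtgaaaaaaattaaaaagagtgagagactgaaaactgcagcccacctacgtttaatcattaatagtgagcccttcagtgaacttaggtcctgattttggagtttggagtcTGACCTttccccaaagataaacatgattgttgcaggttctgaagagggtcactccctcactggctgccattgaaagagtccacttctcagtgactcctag

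The APOH window held GTTAAT, the core letters of an HNF1 site, at 2 places, with left ends at -210 and -49 from the start, and 6.88% of all 35116 windows hold them at least once. HNF1 proteins are transcription factors of hepatocytes. The printed APOE window held CCAAT, on the opposite strand at -27, as do 34.6% of windows; of the other APOE windows 1 held it at -202 and 1 held no motif. The printed MTTP window held AGGTCA, the letters that nuclear receptors read, on the opposite strand at -50, which 13.8% of windows hold. It also held CCAAT at -165 and the TATA box letters TATAAA at -227, on the opposite strand too; 11.5% of windows hold the latter. The other MTTP window held none of the 6 motifs. The HNF4 site letters CAAAGTCCA, held by 0.384% of windows, were in none of the members' windows. Nor were the sterol regulatory element letters TCACNCCAC, held by 1.13%. APOA1, APOB and APOC3 had no window and were not searched. The APOC1 window held none of the 6 motifs. These matches are descriptions of the letters, not binding sites.

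Between the antagonists, given at the same dose and for the same time, 1 pair of compounds was compared. APOB stood at 1.05 times (1.04 to 1.05) in the A740003 library over the A438079 library, so it was close between them relative to its distance from PBS. APOH differed most, at 0.801 times (0.786 to 0.816), and only 1.15% of genes with at least 100 CPM had a lower ratio. APOA1 stood at 0.914 times (0.897 to 0.932), APOC1 at 0.937 (0.885 to 0.991), and APOC3 at 0.963 (0.843 to 1.10). The direction of APOC1 depended on the unit, since its FPKM ratio was 1.07. Higher with A740003 were MTTP at 1.11 times (1.03 to 1.20), APOE at 1.10 times (1.06 to 1.15), APOA2 at 1.05 times (1.03 to 1.07) and APOM at 1.04 times (0.962 to 1.14). After removal of the GC and length trend the log2 ratio of APOE went from 0.14 to 0.011. That of APOA2 went from 0.069 to 0.021 and that of APOB from 0.065 to 0.019, while that of MTTP stayed at 0.15. The log2 ratio of APOM went from 0.063 to 0.052, that of APOH from -0.32 to -0.28 and that of APOA1 from -0.13 to -0.24. The intervals of APOC3 and APOM include 1, which does not show that the compounds act alike on them. Structures are not compared, because both compounds are known here by code names.

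At 1.5-fold with an interval that excludes 1, 0 of 9 members were higher with A740003 over PBS, where 3.14% of the 12270 genes were, and 0 were lower, where 10.7% were. For A438079 over PBS the members' counts were 0 and 0 beside 1.63% higher and 9.44% lower over all genes. For A740003 over A438079 they were 0 and 0 beside 2.44% and 2.81%. At a looser limit, at least 25% higher or at most 0.8 times, APOB was higher and APOH lower with A740003, beside 11.1% and 16.8% of all genes. APOB was higher and APOE lower with A438079, beside 6.01% and 15%. No member passed the looser limit between the antagonists, where 5.67% of genes were higher and 5.96% lower. The count of 1 member of 9 in a direction is not a result about the members beside these background shares.

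The median log2 ratio of the members was 0.0044 with A740003 and -0.031 with A438079, beside 0.00097 and -0.0036 over all genes compared and 0.051 and 0.067 over genes with at least 100 CPM. Between the antagonists it was 0.063, beside -0.0036 over all genes compared. With A740003 5 members lay above PBS and 4 below, and with A438079 3 lay above and 6 below. The intervals of 3 members lay above 1 and of 3 below 1 with A740003, and of 3 and 4 with A438079. The members thus showed no shared direction over PBS.

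Summed, the members held 1.28% of the A740003 library's counts (Clopper-Pearson 95% interval 1.28% to 1.29%), 1.24% of the A438079 library's (1.24% to 1.249%) and 1.09% of the PBS library's (1.08% to 1.09%). APOB alone made up 67.1%, 64.8% and 56.9% of those counts. Without it, the other 8 genes took 0.422%, 0.437% and 0.468%, so their order across the libraries was the opposite one. APOH held 19800, 24068 and 27124 of their 83206, 85730 and 90660 counts, so much of that difference lay in 1 gene. By ratio over PBS, 4 of these 8 genes lay above and 4 below with A740003, and 2 above and 6 below with A438079. Only with APOB included was the members' share higher in the antagonist libraries.

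**Figure D3:**
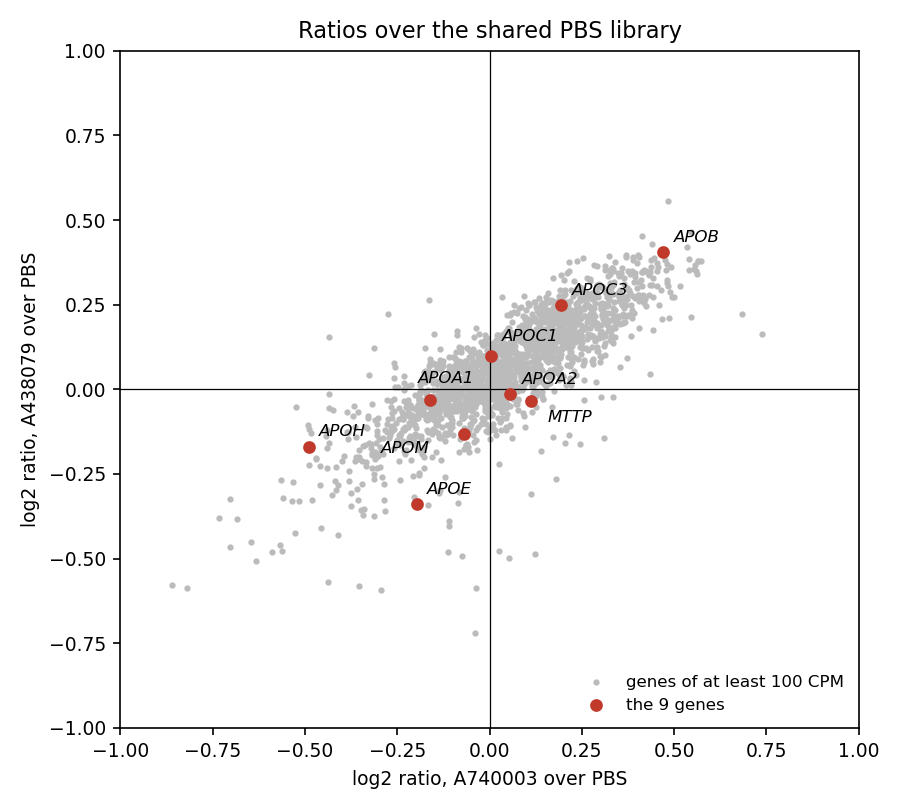
Log2 ratio of scaled counts over PBS with A740003 (x axis) and A438079 (y axis) for genes of at least 100 CPM (grey) and the 9 genes (red); 4 grey genes lie outside the axes, and both axes share the PBS library. APOB lies at 0.47 and 0.40 at the upper right edge of the grey points, and APOH and APOE lie at -0.49 and -0.17 and at -0.20 and -0.34.

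Levels of different genes can be compared only per length. In the authors' FPKM the order with PBS was APOA2 (8003 FPKM), APOA1 (1815), APOH (1576), APOC1 (565), APOB (447), APOE (314), APOM (129), APOC3 (78.9) and MTTP (19.5). APOC1 and APOB were the only neighbours in that order whose ranges over the 3 libraries overlapped, at 522 to 565 and 447 to 622 FPKM, and they changed places in both antagonist libraries. APOA2 ranked from 12 to 13 among all genes by FPKM, and MTTP from 4169 to 4526. The order of the other 7 members was the same in the 3 libraries. This order rests on the length by which the FPKM was divided. With PBS that length was 199 nt for APOA2 and 212 nt for APOC1, while their longest annotated transcripts are 927 and 689 nt. An order by annotated length was not computed.

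Counts and FPKM gave different ratios for the short mRNAs. The length by which the deposited FPKM was divided, recovered from count, FPKM and library total, was 214, 222 and 199 nt for APOA2 in the A740003, A438079 and PBS libraries and 218, 243 and 212 nt for APOC1. For APOC3 it was 271, 275 and 249 nt, and for APOB 13847, 13861 and 13828 nt. The recovered length was thus longer in both antagonist libraries, by little for APOB and by more for the short genes. Over 63 genes with whole counts, at least 1000 in each library, and a recovered length under 500 nt with PBS, the median was 1.05 times PBS with A740003 and 1.07 times with A438079. The FPKM ratio of APOC1 with A438079 was 0.925 where scaled counts gave 1.07, that of APOC3 was 1.06 where counts gave 1.19, and that of APOA2 was 0.876 where counts gave 0.990. APOB, at 1.39 and 1.30 in FPKM, APOH, at 0.707 and 0.855, and APOE, at 0.866 and 0.767, kept their direction in both units.

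**Figure D4:**
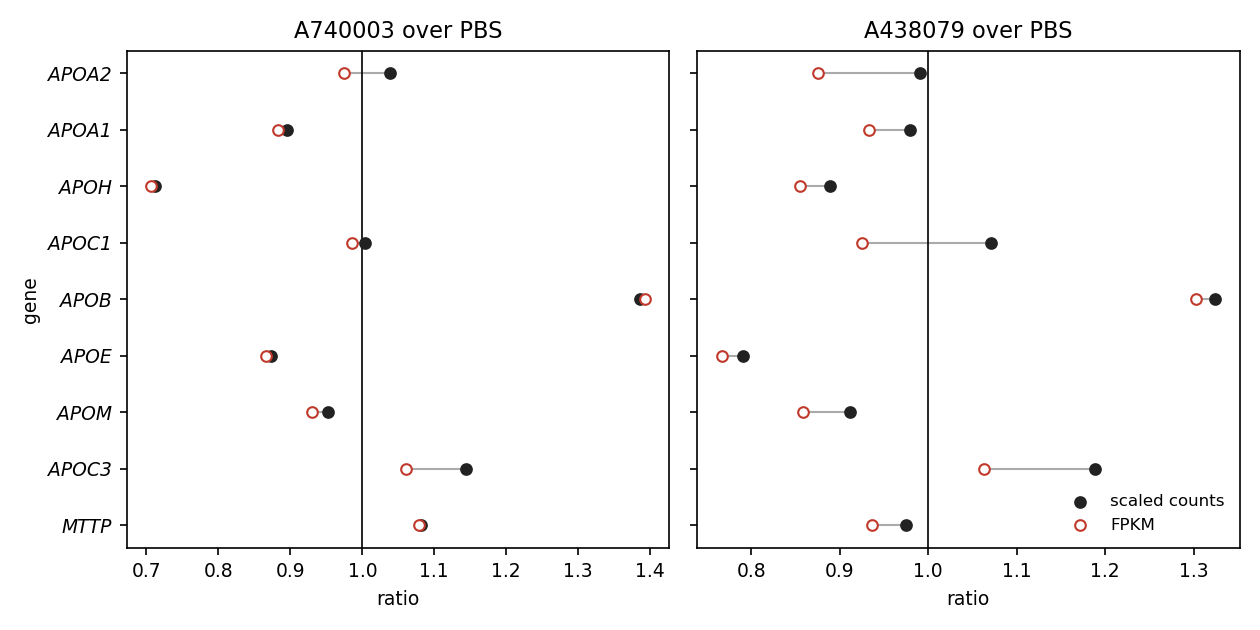
Ratio over PBS of each gene from scaled counts (filled) and from the authors' FPKM (open), with A740003 (left) and A438079 (right). The markers lie close together for APOB and furthest apart for APOC1 with A438079, at 1.07 and 0.925 on opposite sides of 1.

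APOA1 and APOC3 lie in 1 gene cluster on chromosome 11 with APOA4 and APOA5. APOA5, an activator of triglyceride clearance, had 342 counts with A740003, 343 with A438079 and 516 with PBS, so both antagonist libraries were lower. Its ratios over PBS were 0.646 (0.562 to 0.743) and 0.666 (0.579 to 0.765), while those of its neighbour APOC3 were above 1. APOA4 had 35, 40 and 48 counts, and its intervals, 0.446 to 1.12 and 0.535 to 1.30, include 1. The antisense gene APOA1-AS had 0 counts in each library, which allows up to 0.151 to 0.155 CPM.

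APOE and APOC1 lie in a cluster on chromosome 19 with APOC4 and APOC2, the gene of the activator of lipoprotein lipase. APOC2 and the readthrough APOC4-APOC2 had fractional expected counts and may share reads. Summed with APOC4 they had 1893 counts with A740003, 1828 with A438079 and 1595 with PBS, and stood at 1.16 times PBS (1.08 to 1.24) and 1.15 times (1.07 to 1.23). APOE, in the same cluster, lay below PBS in both libraries. APOC1 also had fractional counts, and summed with its pseudogene APOC1P1 it stood at 1.002 times PBS (0.947 to 1.06) and 1.07 times (1.01 to 1.13), close to APOC1 alone. APOB and APOM also had fractional counts in at least 1 library.

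Of 13 other apolipoprotein genes 9 were measured, and 1 of them, APOA5, passed the 1.5-fold limit downwards over PBS with both antagonists while none was higher. Over all genes compared, 3.14% were higher and 10.7% lower with A740003, and 1.63% and 9.44% with A438079. Median log2 ratios of the 9 measured genes were -0.21 (A740003) and -0.14 (A438079). APOF stood at 0.722 times PBS (0.564 to 0.923) and 0.919 times (0.729 to 1.16), APOL6 at 0.857 and 0.866 times, and APOL2 at 1.22 and 0.870 times. Of the 9 genes 6 lay below PBS with A740003 and 7 with A438079, beside 49.8% and 50.5% of all genes compared. The counting interval lay wholly below 1 for 4 and 3 of them and wholly above 1 for 2 and 1.

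Of 25 genes that help to fold lipoproteins or to carry them from the endoplasmic reticulum, 24 were measured and none reached 1.5-fold in either direction in any comparison. Their median log2 ratios were 0.040 with A740003 and 0.048 with A438079. Over all genes compared, 1.63% to 3.14% were higher and 2.81% to 10.7% lower at 1.5-fold in the 3 comparisons. MIA3, a cargo receptor for large particles, had 1396, 1183 and 1093 counts with A740003, A438079 and PBS, and log2 ratios over PBS of 0.32 and 0.12. Its direction turned with the unit, since the authors' FPKM were 20.7, 18.3 and 21.4, both antagonist libraries below PBS. KLHL12, a ubiquitin ligase adaptor for large COPII coats, stood at 1.10 and 1.24 times, SVIP at 1.19 and 1.13 times, and CIDEB, a lipid droplet protein gene, at 0.822 and 0.772 times.

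Of 17 genes of lipases, lipid transfer proteins and their regulators 10 were measured, with 1 higher and 3 lower at 1.5-fold with A740003 and 0 higher and 3 lower with A438079. Over all genes compared, 3.14% were higher and 10.7% lower with A740003, and 1.63% and 9.44% with A438079. This list too was chosen with earlier results known, so its counts are not a result about these genes. SCARB1, the receptor that takes up cholesterol from high density lipoprotein, had 579, 636 and 1248 counts with A740003, A438079 and PBS, and stood at 0.453 times PBS (0.409 to 0.4998) and 0.511 times (0.463 to 0.562). ANGPTL8, a regulator of lipoprotein lipase, had 426, 263 and 240 counts and stood at 1.73 times (1.47 to 2.04) and 1.10 times (0.918 to 1.31). The hepatic lipase gene LIPC stood at 0.632 and 0.837 times, and ABCA1, the lipid exporter that starts high density lipoprotein, at 1.47 times (1.39 to 1.57) and 1.27 times (1.19 to 1.36). LIPG, the endothelial lipase gene, which is named after its values were seen, had 43, 23 and 45 counts and stood at 0.932 times (0.599 to 1.45) and 0.512 times (0.296 to 0.864). Over the 10 genes the median log2 ratios were -0.15 (A740003) and -0.28 (A438079).

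Of 25 genes of transcription factors known to act on apolipoprotein genes, all were measured, with 1 higher and 10 lower at 1.5-fold with A740003 and 0 higher and 9 lower with A438079. Median log2 ratios of these genes were -0.40 and -0.34, or -0.24 and -0.11 after removal of the trend. RXRA, the shared partner of many nuclear receptors, had ratios over PBS of 0.305 (0.225 to 0.409) and 0.653 (0.518 to 0.820), FOXA1 of 0.476 and 0.578, and CREB3L3 of 0.924 and 0.565. SREBF2, the factor of cholesterol synthesis genes, stood at 0.425 and 0.470 times. After removal of the trend the log2 ratio of RXRA went from -1.70 to -0.77 (A740003) and from -0.61 to 0.063 (A438079). RXRA was thus no longer below PBS with A438079. The log2 ratios after removal were -1.06 and -0.78 for FOXA1, 0.12 and -0.60 for CREB3L3, and -0.76 and -0.71 for SREBF2. HNF4A, a main activator of apolipoprotein genes that is named after its values were seen, stood at 1.003 times (0.959 to 1.05) and 1.02 times (0.973 to 1.06), and its intervals include 1. Of all genes compared, 3.14% were higher and 10.7% lower at 1.5-fold with A740003, and 1.63% and 9.44% with A438079. The factor list was chosen with earlier results of these data known. Its counts beside these shares are therefore a description and not a result about the factors, and no test was made.

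Among the 12 genes of secreted hepatocyte proteins, 1 was higher and 0 lower at 1.5-fold with A740003, and 0 passed with A438079. TTR, the transthyretin gene, was the higher one, with ratios over PBS of 1.65 (1.26 to 2.17) and 1.31 (0.983 to 1.75), from 88 to 149 counts. FGB stood at 0.739 times (0.702 to 0.779) and 1.11 times (1.06 to 1.17), and HP at 0.822 and 0.929 times. Over the list the median log2 ratios were -0.032 and 0.12. The shares over all genes compared were 3.14% higher and 10.7% lower at 1.5-fold with A740003, and 1.63% and 9.44% with A438079.

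**Figure D5:**
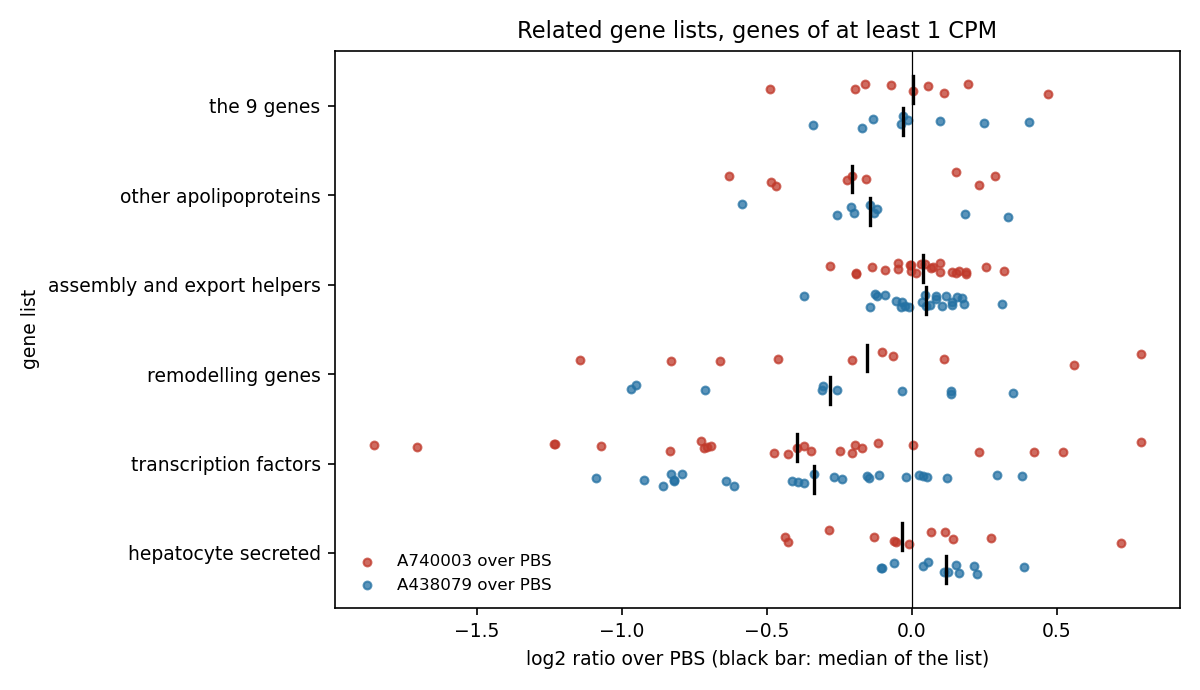
Log2 ratio over PBS of the 9 genes and of the measured genes in 5 related lists, with A740003 (red) and A438079 (blue); each point is 1 gene and black bars are medians. The 9 genes lie around 0, with medians of 0.0044 and -0.031, while the transcription factor list has medians of -0.40 and -0.34. After removal of the GC and length trend, not drawn, the medians were -0.067 and -0.046 for the 9 genes. For the transcription factor list they were -0.24 and -0.11.

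The genes nearest to each member were sought among 1907 other genes with at least 100 CPM, as the smallest distance between the 2 log2 ratios over PBS, which come from only 3 libraries. UTRN and MDN1 were nearest to APOB, at distances of 0.023 and 0.030 on the log2 scale, with longest transcripts of 12339 and 18413 nt. RPS27L and PDAP1 were nearest to APOH, at 0.0061 and 0.038, and SLC3A2 and FABP1 to APOE, at 0.023 and 0.031. For the other 6 members the nearest gene lay at 0.0036 to 0.0096.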

How the data were processed

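Each of the 3 treatments gave 1 mRNA-seq library (SMARTer kit, per the labels' protocols). The authors deposited expected counts per gene, estimates that need not be whole, and FPKM values per gene, scaled by the authors for length and library size. The submitters' processing notes name the mouse build GRCm38 for rows of human Ensembl genes, so the build behind the counts is unclear. Aligner, counting tool, annotation and strand use were not given in the sources used here. Positions and transcript lengths come from GENCODE release 29 (GRCh38), matched by gene identifier for 11906 of the 12270 genes compared (97.0%). The 116 rows without an Ensembl identifier held 0.0775% to 0.0853% of each library and stayed in the totals.

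Expected counts were rounded and TMM-scaled (edgeR 4.0.16 under R 4.3.3; factors 0.989 to 1.01), and 1 CPM was 19.4 to 19.9 counts. Ratios carry exact conditional binomial 95% intervals (scipy 1.17.1), which assume counting error only, and log2 ratios a pseudocount of 0.5 counts. No p-value was computed, there being 1 library a treatment. The GC and length trend is a running median of log2 ratios over the 201 closest genes, ranked by GC content and by length of the longest transcript. Only the ratios, their intervals and the fold call were tried on simulated counts, drawn with counting error only. That simulation cannot test the scaling, the trend, the FPKM values or the spread between replicates. Alternatives tried were upper quartile scaling, size factors from DESeq2 1.42.0, total counts, totals without mitochondrial genes or without the 9 genes, other filters and fold sizes, unrounded counts, FPKM with pseudocounts of 0.1 and 1, and the trend removed.

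The members and lists were chosen with earlier results of these data known. Named genes were all members, from each list up to 4 genes (mean of 5 CPM or more) that departed most from PBS, the neighbours in the 2 gene clusters and the 2 genes nearest to each member. PECAM1 of the endothelial list was not analysed here. The values of 1 listed gene are not reported here.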

Additional observations from a re-analysis of the deposited data

How the results depend on the processing

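No paired analysis was possible because each treatment had 1 library. Of the 27 member ratios, 20 kept their direction under all 9 alternative scalings, units and corrections, those of APOB, APOE, APOH, APOM and APOC3 in all 3 comparisons among them. The 7 others were ratios of APOA1, APOA2, APOC1 and MTTP close to 1. At the limit of 25%, 2 members passed with A740003 and 2 with A438079 over PBS, instead of 0 at 1.5-fold. The median log2 ratio of the members with A438079 over PBS, -0.031, became 0.019 with upper quartile scaling, -0.066 with totals without mitochondrial genes, and -0.11 with FPKM at a pseudocount of 0.1 (-0.112208) or of 1 (-0.112022). Without mitochondrial genes in the totals the members took 1.40%, 1.37% and 1.21% of counts with A740003, A438079 and PBS. The cause of these differences was not tested. No scaling moved the median of all genes by more than 0.057 on the log2 scale. Depth limited APOC3 most, with 381 to 452 counts; the spread between replicate libraries is unknown for every gene.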
